A study of Rattus norvegicus with 20 samples.

Results

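The comparison described here sets livers of rats fed 2 different shares of a soybean cultivar rich in isoflavones against each other. Its members are the 5 arrays of the diet with equal parts of protein from casein and from the high-isoflavone soybean Yukipirika (called 1:1 here) and the 5 arrays of the diet with 3 parts of casein protein to 1 part of protein from the same soybean (called 3:1), so 10 of the 20 arrays of the series. They were chosen by their titles: the title of the 3:1 diet names casein beside the soybean and that of the 1:1 diet does not. The labels do not pair these titles with the diet descriptions, so the assignment rests on that wording, and the title of the conventional soybean diet also leaves casein unnamed although its protein came equally from casein and soybean. Of 31099 probe sets, the 27702 that held values and were no controls were compared.

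All rats were male Sprague-Dawley rats obtained at 4 weeks of age, kept singly, adapted for 5 days on a commercial diet and then fed freely for 21 days. The 3:1 diet was given to 7 rats and the 1:1 diet to 8, and in each group 5 rats with average food intake went onto arrays. Casein at 200 g per kg was the control diet (5 arrays), and a conventional cultivar, Fukuyutaka, with casein in equal parts was the fourth diet (5 arrays). All diets held casein, so no group was fed soybean protein without it. The share of soybean and the amount of isoflavone rise together from the 3:1 to the 1:1 diet and cannot be told apart in this comparison. Each array is a separate rat, so the spread within a group is that between rats.

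Soybean protein is known for lowering blood cholesterol, and in liver the genes of sterol and fatty acid synthesis are switched by SREBP transcription factors. When sterols are scarce, SREBP is released from the endoplasmic reticulum, where the protein Insig1 otherwise retains it, and turns on the enzymes of the mevalonate pathway. Isoflavones such as genistein and daidzein are absorbed from the gut, joined to glucuronic acid or sulfate in gut and liver, and bind estrogen receptors, the beta form more tightly than the alpha form.

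No probe set passed the test between the 2 shares. Of 27702 probe sets 0 were called (0%) at an adjusted p under 0.05, and the smallest adjusted p was 0.368 (limma with Benjamini-Hochberg adjustment, two-sided). At an unadjusted p under 0.05 there were 2000 probe sets (7.22%), 1125 (4.06%) higher and 875 (3.16%) lower on the 1:1 diet. The 5 rats of each diet did not overlap in 316 probe sets (1.14%), 177 (0.639%) higher and 139 (0.502%) lower on the 1:1 diet. After quantile normalization the non-overlapping probe sets were 329 with 40.1% higher, and after centring and scaling 338 with 36.7% higher, against 56% higher in the deposited values, so that balance depends on the scaling. Each gene was represented by its brightest probe set, which gave 13462 genes. Among them 1003 (7.45%) had an unadjusted p under 0.05, with 518 higher (3.85%) and 485 lower (3.6%), 156 (1.16%) had rats that did not overlap, and 46.1% of the differences were below 0 and 53.9% above it. The median difference of all genes was 0.02 on the log2 scale. Over all probe sets, the 95% interval of a difference reached 0.309 on the log2 scale to either side at the median, and 0.268 in the brighter part of the table. These intervals are from the fit of all 20 arrays, before adjustment for the number of probe sets. The verbs rose and fell are therefore kept below for comparisons with casein, and differences between the shares are given with their 95% intervals.

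The arrays were alike in their middle level, with array medians from 2.43 to 2.53 on the 3:1 diet and from 2.45 to 2.57 on the 1:1 diet (log2). Rat 1 of the 3:1 diet stood apart in its lowest value, which was 0.471. Those of the other rats of that diet lay between -1.34 and -0.879. Outside the 2 shares, casein rat 5 had a like lowest value, 0.447. These are the 2 arrays with a higher floor named below. In rat 1 of the 3:1 diet the signal of the actin probe sets at the 3′ end exceeded that at the 5′ end by 2.13. A high value of this kind is a sign of more degraded RNA. The other 3:1 rats gave 1.35 to 1.56. The 1:1 rats gave 1.07 to 2.10, with rat 5 of the 1:1 diet the highest. The same measure for GAPDH did not set rat 1 of the 3:1 diet apart. It was 0.937, within the range of the other 3:1 rats, so the 2 measures differed for this rat. The part of rat 1 of the 3:1 diet in the results was not tested beyond leaving it out. Without it 0 probe sets were called, and 20 of the 21 sterol genes and 27 of the 28 fat synthesis genes described below had a difference below 0. Markers of hepatocytes (9 of 10 measured) were bright on all arrays, with a mean level of 8.46 to 8.68 on the 3:1 and 8.32 to 8.56 on the 1:1 diet, as the liver label states.

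Genes of cholesterol synthesis and uptake lay lower on the 1:1 than on the 3:1 diet in 20 of 21 measured members, with a median difference of -0.30 (log2). None was called, 4 had an unadjusted p under 0.05 and all 4 were lower: Pmvk, Cyp51, Insig1 and Acat2. Of all genes 3.6% were lower at that p. In none of the 21 were the rats of the 2 diets fully apart. That held for 1.16% of all genes, so none in a list this short is near that share. Over the alternative settings the list's median stayed between -0.396 and -0.203, with 18 to 21 members below 0. That number counts the genes left in each setting, and the setting without dim probe sets can hold fewer. In whole liver, fewer cells of a type and less RNA per cell cannot be told apart, here and for all groups of genes below.

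Pmvk, phosphomevalonate kinase, phosphorylates an intermediate of the mevalonate pathway. Its log2 signal was 4.82, 4.76, 5.00, 3.98 and 4.76 in rats 1 to 5 of the 3:1 diet and 3.93, 3.46, 3.76, 3.40 and 4.09 in rats 1 to 5 of the 1:1 diet. All rats of the 3:1 diet but rat 4 lay above every rat of the 1:1 diet, and rat 4 lay below rat 5 of the 1:1 diet. The difference was -0.94 (SE 0.170, 95% interval -1.29 to -0.58, limma adjusted p = 0.368), a level 1.91-fold lower. Without rat 4 of the 3:1 diet it was -1.11 with a limma adjusted p of 0.00643, and Pmvk was then the only probe set called. Rat 4 was the 3:1 rat closest to the 1:1 rats, so its omission widens the difference by construction. The p without it adds no support.

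Cyp51, the enzyme that removes a methyl group from lanosterol, read 6.28, 6.16, 6.22, 6.04 and 6.50 on the 3:1 diet. The same gene read 5.83, 5.80, 6.15, 5.80 and 5.88 on the 1:1 diet. Rat 3 of the 1:1 diet reached into the range of the 3:1 rats, and the other 4 lay below all of them. The difference was -0.35 (95% interval -0.58 to -0.11), and the second probe set of Cyp51 gave -0.51.

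Insig1, itself a gene that SREBP turns on, stood at 7.84, 7.09, 6.89, 6.52 and 7.23 on the 3:1 diet and at 5.84, 4.62, 7.75, 4.64 and 5.89 on the 1:1 diet. Here too rat 3 of the 1:1 diet was as high as the 3:1 rats while the other 4 lay below all of them. The difference of -1.36 had a wide interval, from -2.39 to -0.33, a level 2.57-fold lower. Acat2, the thiolase that joins acetyl units in the first step of the pathway, read 3.04, 2.86, 3.20, 2.02 and 3.25 on the 3:1 diet against 2.24, 1.97, 2.80, 2.19 and 1.98 on the 1:1 diet. Rat 4 was the low rat of the 3:1 diet and rat 3 the high rat of the 1:1 diet. The difference was -0.64 (95% interval -1.17 to -0.11).

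**Figure D1:**
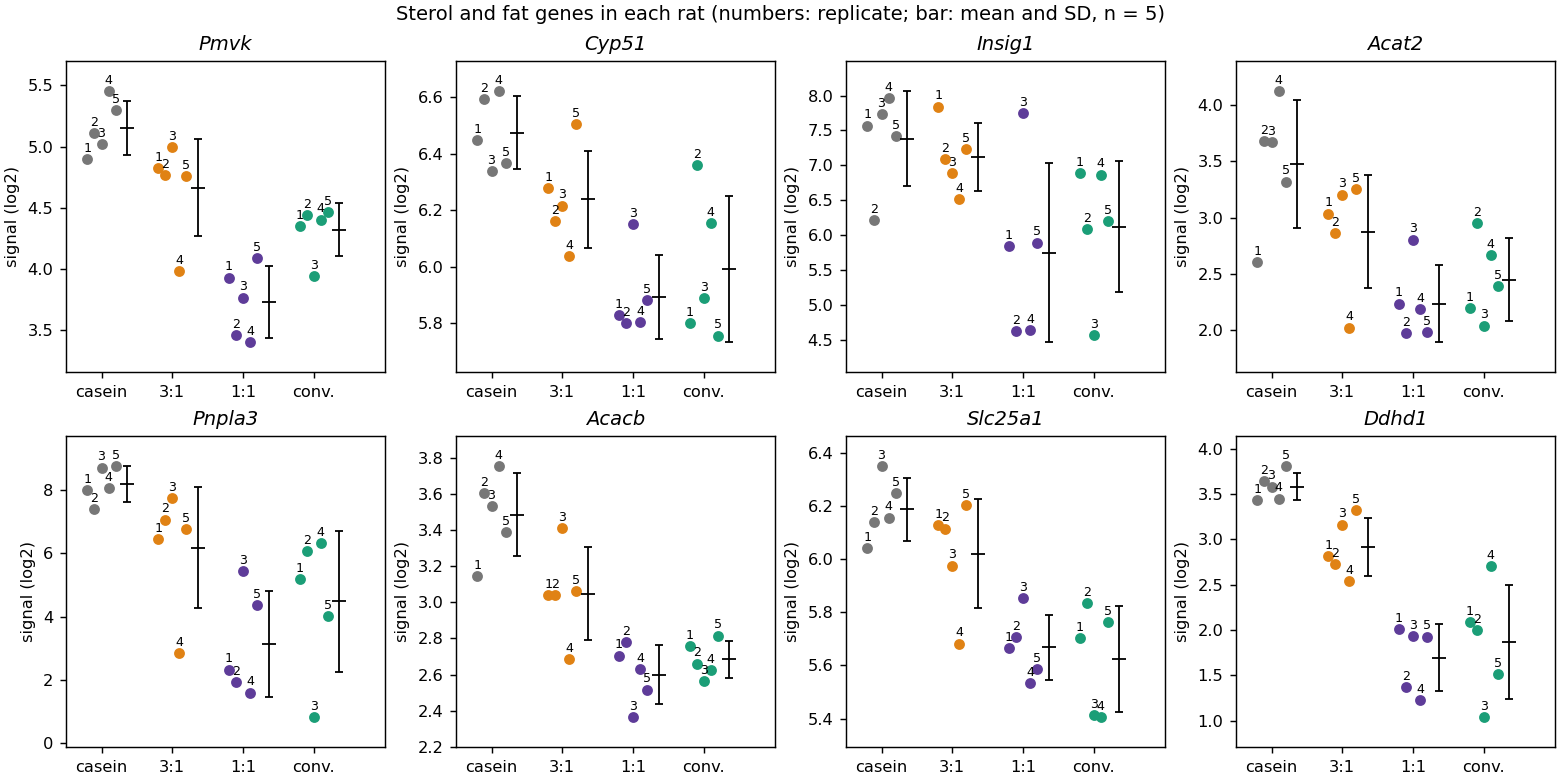
Log2 signal (vertical axis) of 8 genes in every rat of the casein, 3:1, 1:1 and conventional soybean (conv.) diets, with replicate numbers beside the points and the mean and SD of 5 rats as a bar. Ddhd1 is the only one of the 8 whose 3:1 and 1:1 rats do not overlap; in Pmvk and Pnpla3 rat 4 of the 3:1 diet lies among the 1:1 rats.

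For 7 further genes of the pathway the interval of the difference held 0. Lss, lanosterol synthase, differed by -0.58 (95% interval -1.19 to 0.03). For Mvd, the decarboxylase that yields isopentenyl diphosphate, the difference was -0.42 (95% interval -0.85 to 0.02). Idi1, the isomerase of that product, differed by -0.44 (95% interval -0.92 to 0.04), and Sqle, squalene epoxidase, by -0.43 (95% interval -0.98 to 0.12). Farnesyl diphosphate synthase, Fdps, was the brightest of these probe sets, with a mean of 7.72 ± 0.30 on the 3:1 and 7.43 ± 0.31 on the 1:1 diet (SD, n = 5 each), a difference of -0.30 (95% interval -0.64 to 0.05). Dhcr7, which makes cholesterol from its last precursor, differed by -0.33 (95% interval -0.72 to 0.07). Srebf2, the gene of an SREBP factor itself, differed by -0.14 (95% interval -0.37 to 0.10). These intervals leave room for no difference and for one as large as that of Pmvk in the cases of Lss and Sqle. Single rats carried much of the larger ones: Lss was -0.34 without rat 4 of the 1:1 diet, and without rat 2 of that diet Sqle was -0.24 and Idi1 -0.24.

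Against the casein diet, 9 of the 21 sterol genes fell on the 1:1 diet and 0 on the 3:1 diet, where 1.2% and 0.0297% of all genes fell (limma, adjusted p under 0.05). Both comparisons use the same casein rats, and the difference between the 2 shares is the one tested above, which did not pass. Pmvk fell by 1.43 on the 1:1 diet (adjusted p = 1.4e-04, lower in all 5 rats than in any casein rat) and differed by -0.49 on the 3:1 diet (adjusted p = 0.424). Lss fell by 1.49 on the 1:1 diet (adjusted p = 0.00926) and differed by -0.91 on the 3:1 diet (adjusted p = 0.341). Cyp51 fell by 0.58 (adjusted p = 0.00875) on the 1:1 diet and differed by -0.24 (adjusted p = 0.619) on the 3:1 diet. Of the 9 calls on the 1:1 diet, 6 held in all settings: Pmvk, Lss, Cyp51, Acat2, Sc5d and Tm7sf2. That of Nsdhl, a sterol dehydrogenase, was lost in 14 of 19 alternative settings, 9 of them single omissions. The call of Fdps was lost in 6 settings, 5 of them the omission of 1:1 rat 2 or 4 or of casein rat 3, 4 or 5, and that of Mvd without 1:1 rat 2 or 4. The number of sterol genes called ran from 6, without 1:1 rat 2 or 4, to 10. The list's median difference from casein was -0.45 on the 1:1 and -0.20 on the 3:1 diet, against 0.03 and 0.01 for all genes.

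**Figure D2:**
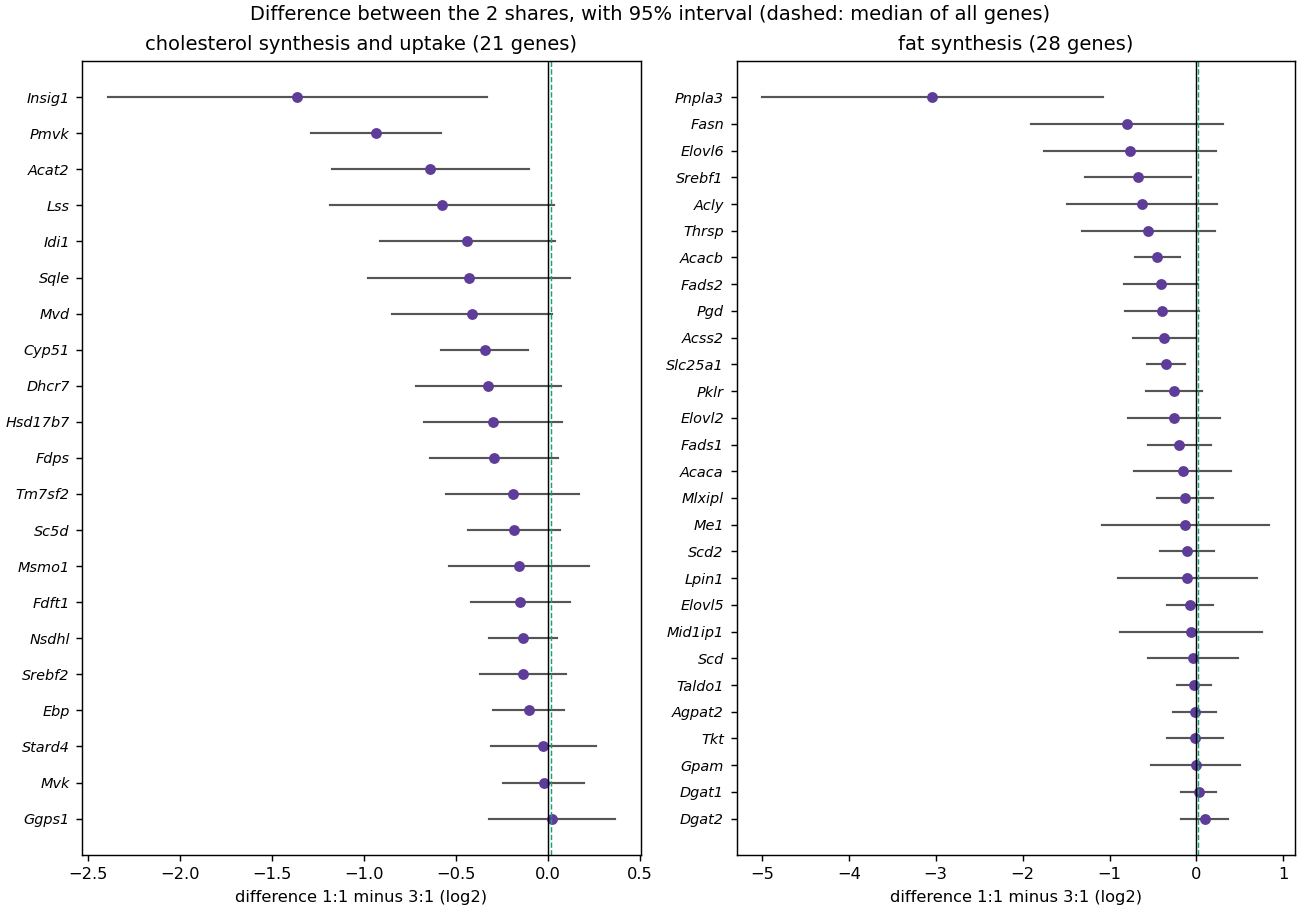
Difference between the 1:1 and the 3:1 diet (log2, horizontal axis) for the 21 genes of cholesterol synthesis and uptake and the 28 genes of fat synthesis, points with 95% intervals from limma, n = 5 rats per diet. The dashed line is the median of all genes, 0.02; 20 of 21 and 26 of 28 points lie below 0, and the intervals of 4 and 5 genes lie wholly below it.

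The promoters of the sterol genes are shown because these genes lay the same way. Mature SREBP acts together with the factor NF-Y, which binds CCAAT boxes. The promoter windows of RefSeq (build GRCr8, 250 bases before to 50 after the start of a gene, 300 bases in all) matched 17 of the 21 sterol genes by symbol. Capitals mark each CCAAT or, for the other strand, ATTGG.
Insig1, chr4:8057720-8058019, minus strand: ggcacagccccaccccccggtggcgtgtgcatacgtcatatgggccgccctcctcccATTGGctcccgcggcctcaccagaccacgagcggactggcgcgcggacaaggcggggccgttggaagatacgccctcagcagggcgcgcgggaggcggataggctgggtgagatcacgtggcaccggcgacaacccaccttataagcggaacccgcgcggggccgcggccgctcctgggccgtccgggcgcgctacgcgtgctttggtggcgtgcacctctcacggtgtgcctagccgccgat
Mvd, chr19:67414925-67415224, minus strand: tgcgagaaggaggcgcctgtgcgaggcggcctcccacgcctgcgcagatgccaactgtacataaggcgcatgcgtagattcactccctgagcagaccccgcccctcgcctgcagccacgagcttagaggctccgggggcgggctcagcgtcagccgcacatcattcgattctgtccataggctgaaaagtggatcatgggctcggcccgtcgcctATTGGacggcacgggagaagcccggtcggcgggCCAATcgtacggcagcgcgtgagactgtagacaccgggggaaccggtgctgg
Lss, chr20:12118181-12118480, minus strand: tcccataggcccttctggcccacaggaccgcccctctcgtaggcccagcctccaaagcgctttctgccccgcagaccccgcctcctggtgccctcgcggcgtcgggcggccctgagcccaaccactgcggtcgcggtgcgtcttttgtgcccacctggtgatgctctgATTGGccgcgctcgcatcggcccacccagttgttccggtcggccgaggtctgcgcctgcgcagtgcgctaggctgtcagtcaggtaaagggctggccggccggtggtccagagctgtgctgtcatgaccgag

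The box in Insig1 begins 193 bases before the start, that in Lss 82 bases before it, and those in Mvd 35 and 2 bases before it. Of the 17 matched sterol promoters 14 (82.4%) held CCAAT on either strand, against 37.5% of all 33469 promoter windows. Among the fat synthesis genes 15 of 23 (65.2%) held it. The sterol response element TCACNCCAC, searched on both strands, was in 0 of the 17 sterol and 0 of the 23 fat synthesis windows and in 1.12% of all windows. The 2 motifs can overlap at their ends, which did not occur in these windows because none held the sterol element. A match describes only the letters of this window, and the sterol list was chosen for its function.

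Fat synthesis showed a like picture, with 26 of 28 measured genes lower on the 1:1 diet and a median difference of -0.18. None was called and 5 had an unadjusted p under 0.05, all lower: Acacb, Slc25a1, Pnpla3, Srebf1 and Acss2. Of all genes 3.6% were lower at that p. The median stayed between -0.311 and -0.139 over the alternative settings, with 21 to 27 members below 0 among the genes left in each setting. Against casein 13 of the 28 fell on the 1:1 diet and 0 on the 3:1 diet, where 1.2% and 0.0297% of all genes fell, with median differences of -0.79 and -0.52. Of the 13 calls 8 held in all settings: Acacb, Acss2, Elovl6, Fads2, Pgd, Pklr, Pnpla3 and Slc25a1. The call of Acly was lost in 13 of 19 alternative settings (9 single omissions), that of the desaturase Fads1 in 10 (7) and those of Fasn and Thrsp in 8 each (6 each). Fads1, Fasn and Thrsp were all lost without 1:1 rat 1, 2 or 4 or without casein rat 3, 4 or 5, and Acly without any casein rat or any 1:1 rat but rat 3. The call of Acaca, the acetyl-CoA carboxylase of the cytosol, was lost without 1:1 rat 2. Acaca is uncertain also because its second, dimmer probe set was not called on the 1:1 diet against casein (limma adjusted p = 0.946). That probe set gave -0.02 between the shares. Without 1:1 rat 2, or without casein rat 5 and 3:1 rat 1 together, 8 of the 28 were called, the fewest over the settings. The most was 16, after centring and scaling.

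Pnpla3, a lipid droplet protein with lipase activity whose gene SREBP and dietary carbohydrate switch on, had the largest difference of the list. It read 6.44, 7.06, 7.74, 2.86 and 6.77 on the 3:1 diet and 2.33, 1.93, 5.44, 1.61 and 4.37 on the 1:1 diet. Among the 3:1 rats, rat 4 lay within the range of the 1:1 rats and the other 4 lay above it. The difference was -3.04 (SE 0.944, 95% interval -5.0 to -1.08, limma adjusted p = 0.526), a level 8.22-fold lower, and the other 2 probe sets of the gene gave -2.86 and -1.40. Pnpla3 fell by 5.04 from casein on the 1:1 diet (adjusted p = 0.00647) and differed by -2.00 on the 3:1 diet (adjusted p = 0.606).

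Acacb, the acetyl-CoA carboxylase whose malonyl-CoA curbs entry of fatty acids into mitochondria, read 3.04, 3.04, 3.41, 2.69 and 3.06 on the 3:1 diet. On the 1:1 diet its levels were 2.70, 2.78, 2.37, 2.63 and 2.52. In the 3:1 group rat 4 lay among the 1:1 rats and the rest above them. The difference was -0.45 (95% interval -0.71 to -0.19), and Acacb fell by 0.89 from casein on the 1:1 diet (limma adjusted p = 6.2e-04).

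Slc25a1, the carrier that brings citrate out of mitochondria for fatty acid and sterol synthesis, read 6.13, 6.12, 5.98, 5.68 and 6.20 on the 3:1 diet and 5.66, 5.71, 5.85, 5.53 and 5.59 on the 1:1 diet. Again rat 4 of the 3:1 diet was the only one to overlap the 1:1 rats. The difference was -0.35 (95% interval -0.57 to -0.13). Srebf1, which encodes the SREBP form that drives fatty acid genes, read 6.83, 6.73, 7.05, 5.22 and 6.75 against 5.63, 5.71, 6.34, 5.88 and 5.70. Its rat 4 on the 3:1 diet was below every 1:1 rat, the others were above every one of them, and the difference was -0.67 (95% interval -1.28 to -0.06). Acss2, which makes acetyl-CoA from acetate, differed by -0.37 (95% interval -0.74 to -0.01).

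The core enzymes had differences of a similar or larger size with wide intervals. For Fasn, fatty acid synthase, the mean was 6.34 ± 1.15 on the 3:1 and 5.55 ± 0.94 on the 1:1 diet (SD, n = 5 each), a difference of -0.80 (95% interval -1.90 to 0.31). Acly, which splits citrate into acetyl-CoA, differed by -0.63 (95% interval -1.48 to 0.23) and the elongase Elovl6 by -0.77 (95% interval -1.75 to 0.22). Thrsp, a thyroid hormone responsive lipogenic gene, differed by -0.55 (95% interval -1.31 to 0.21). Rat 4 of the 3:1 diet weighed on these values: without it Fasn differed by -1.30, Acly by -1.01 and Thrsp by -0.87. The desaturase Fads2 differed by -0.41 (95% interval -0.84 to 0.02) and the pentose phosphate enzyme Pgd by -0.40 (95% interval -0.82 to 0.03). Little separated the 2 shares in the stearoyl-CoA desaturase Scd (-0.04, 95% interval -0.56 to 0.47), in Me1, the malic enzyme (-0.13, 95% interval -1.09 to 0.84), or in Gpam, which begins triglyceride assembly (-0.01, 95% interval -0.52 to 0.50), but intervals this wide do not show that the shares act alike. The second probe sets of Me1 and Gpam gave -0.40 and -0.27.

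**Figure D3:**
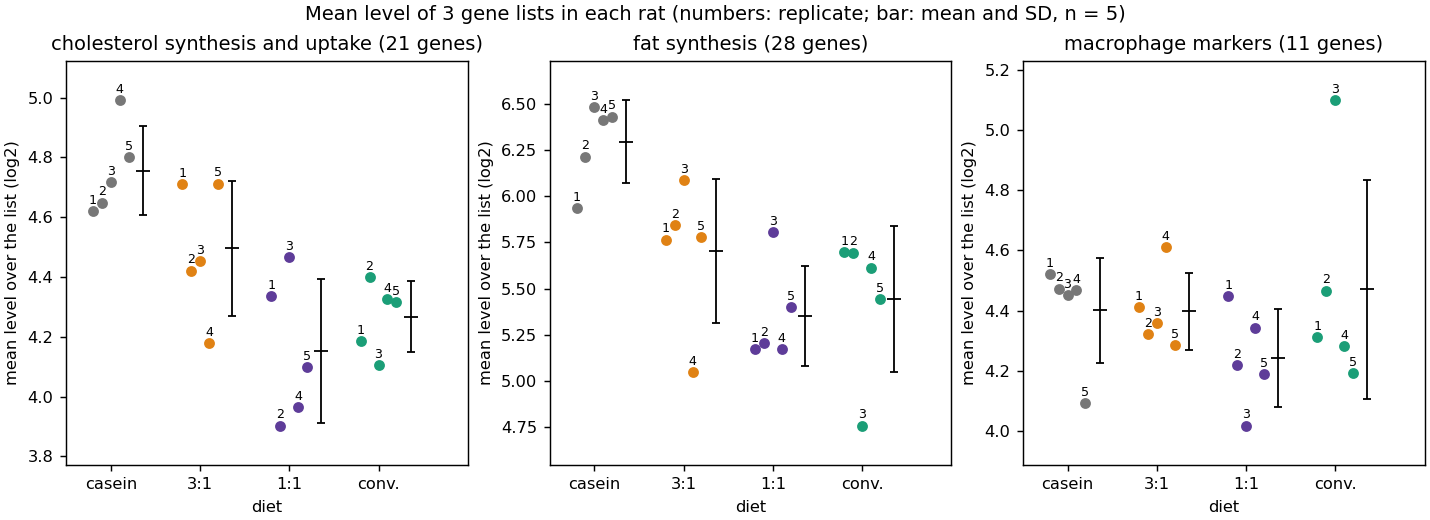
Mean log2 level over the measured genes of 3 lists (vertical axis) in every rat of the casein, 3:1, 1:1 and conventional soybean (conv.) diets, with replicate numbers and the mean and SD of 5 rats as a bar. Within the 3:1 diet rat 4 is lowest for both lipid lists, and within the 1:1 diet rat 3 is highest for both.

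Averaged over the list, fat synthesis stood at 5.76, 5.84, 6.09, 5.05 and 5.78 in the 3:1 rats and at 5.17, 5.20, 5.80, 5.17 and 5.40 in the 1:1 rats. The sterol list stood at 4.71, 4.42, 4.45, 4.18 and 4.71 in the 3:1 rats and at 4.33, 3.90, 4.47, 3.97 and 4.10 in the 1:1 rats. Rat 4 was the lowest 3:1 rat and rat 3 the highest 1:1 rat for both lists, so the groups overlapped through the same 2 rats. The casein rats ranged from 5.94 to 6.48 for fat synthesis and from 4.62 to 4.99 for sterols.

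Among fatty acid binding proteins and lipid droplet genes 16 of 25 were lower on the 1:1 diet, with a median of -0.10. At an unadjusted p under 0.05 there were 5 lower members, where 3.6% of all genes were lower. Ddhd1, a phospholipase that acts on phosphatidic acid, read 2.82, 2.73, 3.16, 2.54 and 3.32 on the 3:1 diet and 2.01, 1.37, 1.94, 1.22 and 1.93 on the 1:1 diet. The 5 rats of each diet did not overlap. The difference was -1.22 (SE 0.232, 95% interval -1.70 to -0.74, limma adjusted p = 0.368), a level 2.33-fold lower, and it lay between -1.31 and -1.10 when each rat was left out in turn. Its casein rats ranged from 3.44 to 3.81, above all 10.

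Fabp5, a fatty acid binding protein best known from skin and fat, read 5.77, 6.18, 6.67, 4.53 and 6.23 on the 3:1 diet against 4.43, 5.17, 5.34, 4.47 and 5.07 on the 1:1 diet. Rat 4 of the 3:1 diet overlapped the 1:1 rats and the others did not, and the difference was -0.98 (95% interval -1.65 to -0.31). Fabp2, the intestinal form, read 2.28, 2.67, 2.47, 2.11 and 2.15 against 1.65, 1.67, 1.74, 1.84 and 2.33. Here rat 5 of the 1:1 diet was the one that overlapped, and the difference was -0.49 (95% interval -0.86 to -0.11). Fabp2 fell from casein on both diets, by 1.21 on the 3:1 diet (limma adjusted p = 0.0106) and by 1.70 on the 1:1 diet (adjusted p = 7.0e-05). The call on the 3:1 diet was lost without rat 4 of that diet or without casein rat 5.

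Fatty acid oxidation and ketogenesis had a median difference of 0.06, with 12 of 34 members below 0. Ephx2, soluble epoxide hydrolase, which opens epoxides of fatty acids, had the largest difference of the list. It read 1.74, 2.17, 2.43, 2.04 and 4.82 on the 3:1 diet and 4.76, 4.90, 5.27, 4.69 and 5.97 on the 1:1 diet. Rats 1 to 4 of the 3:1 diet were low, and rat 5 was at the level of the 1:1 rats. The difference was 2.48 (SE 0.520, 95% interval 1.40 to 3.56, limma adjusted p = 0.368), a level 5.57-fold higher. Without rat 5 of the 3:1 diet it was 3.02 with an adjusted p of 0.0236, and Ephx2 was then the only probe set called. That rat was the 3:1 rat closest to the 1:1 rats, so leaving it out widens the difference by construction. The p without it adds no support. The casein rats lay between 4.64 and 5.85, so the 1:1 diet differed from casein by -0.18 (adjusted p = 0.909) and the 3:1 diet by -2.65 (adjusted p = 0.0617).

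Glucose metabolism had a median of 0.10, with 8 of 23 members below 0. Irs3, an insulin receptor substrate of rodents, read 3.34, 2.44, 3.30, 0.87 and 2.77 on the 3:1 diet and -0.05, 0.98, 2.03, 0.80 and 1.09 on the 1:1 diet. Rat 4 was again the 3:1 rat that overlapped, and the difference was -1.58 (95% interval -2.58 to -0.57). Many of these values are near the low end of the arrays. Pklr, the pyruvate kinase of liver, differed by -0.26 (95% interval -0.58 to 0.06).

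Amino acid breakdown and the urea cycle had a median of 0.03, with 10 of 33 members below 0. At an unadjusted p under 0.05 there were 3 higher and 1 lower, where 7.45% of all genes had such a p. The lower one was Tat, tyrosine aminotransferase, with 5.37, 4.20, 5.00, 4.72 and 4.79 on the 3:1 diet and 3.92, 3.49, 4.40, 3.0 and 3.67 on the 1:1 diet. Only rat 3 of the 1:1 diet reached the lowest rat of the 3:1 diet. The difference was -1.12 (95% interval -1.75 to -0.48), and Tat fell by 1.25 from casein on the 1:1 diet (limma adjusted p = 0.0331), a call lost without 1:1 rat 2 or 4 or without casein rat 1, 4 or 5. Gpt, alanine aminotransferase, read 4.89, 4.43, 5.15, 4.77 and 3.91 on the 3:1 diet and 5.22, 5.65, 5.59, 5.14 and 5.10 on the 1:1 diet. Only rat 3 of the 3:1 diet reached into the 1:1 range, and the difference was 0.71 (95% interval 0.28 to 1.14). The other higher members, Kynu, kynureninase (0.37), and Glud1, glutamate dehydrogenase (0.24), were added after their values were seen. The 2 members of each list with the smallest unadjusted p were named too, so those were also chosen on their values. In the amino acid response, which ATF4 drives when an amino acid runs short, the median was 0.05 with 12 of 28 below 0. Its member Sesn2, a stress-induced inhibitor of mTORC1 signalling, differed by -0.65 (95% interval -1.01 to -0.28) with no overlap between the rats, while its second, dimmer probe set gave -0.07. Methionine, cysteine and taurine enzymes, of interest because soybean protein is low in methionine, had a median of 0.03 with 6 of 15 below 0 and differences from -0.24 to 0.19.

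Targets of the drug-sensing receptors PXR and CAR were higher on the 1:1 diet in 14 of 19 members, with a median of 0.12 that stayed between 0.0749 and 0.176 over the settings. Nr1i3, which encodes CAR itself, read 2.29, 1.95, 1.28, 2.28 and 1.18 on the 3:1 diet and 3.03, 3.01, 2.77, 2.59 and 2.74 on the 1:1 diet. The rats of the 2 diets did not overlap, and the difference was 1.03 (SE 0.282, 95% interval 0.45 to 1.62, limma adjusted p = 0.464). Slco1a4, a transporter of organic anions and a target of PXR, read 4.92, 4.88, 5.05, 6.42 and 4.15 against 5.53, 5.52, 5.52, 5.96 and 6.31. Rat 4 of the 3:1 diet was the highest of all 10, and the difference was 0.69 (95% interval 0.05 to 1.33). The cytochrome P450 gene Cyp3a23-3a1 differed by 0.24 (95% interval -0.09 to 0.58).

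Isoflavone conjugation, the enzymes and transporters that join glucuronic acid or sulfate to such compounds and export them, had a median of 0.02 with 10 of 22 measured members below 0. The members with an unadjusted p under 0.05 were 2 higher and 1 lower, where 7.45% of all genes had such a p. Ugdh, which oxidizes UDP-glucose to UDP-glucuronic acid, read 5.85, 5.63, 5.62, 5.97 and 5.77 on the 3:1 diet and 6.24, 6.04, 6.20, 6.13 and 5.84 on the 1:1 diet. Only rat 5 of the 1:1 diet lay within the 3:1 range, and the difference was 0.32 (95% interval 0.11 to 0.53). Ugp2, which makes UDP-glucose, differed by 0.51 (95% interval 0.03 to 0.99). Ugt2a1, a glucuronosyltransferase, differed by -0.37 (95% interval -0.73 to -0.01). The sulfotransferase Sult1c2a rose from casein on the 1:1 diet by 1.64 (limma adjusted p = 0.00845) and differed by 0.29 between the shares (95% interval -0.38 to 0.95), a value that ran from 0.06 without rat 5 to 0.54 without rat 4 of the 3:1 diet.

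Estrogen receptors and estrogen-responsive liver genes had a median of -0.02, with 13 of 22 measured members below 0. The beta receptor gene Esr2 read 3.50, 3.55, 3.47, 3.84 and 2.97 on the 3:1 diet and 3.93, 3.85, 3.42, 2.97 and 3.18 on the 1:1 diet. The groups covered the same range, and the difference was 0.003 (95% interval -0.37 to 0.38). The alpha receptor gene Esr1 was not analysed here. Agt, angiotensinogen, a classical estrogen-responsive liver gene, read 7.64, 7.70, 7.72, 7.90 and 7.82 against 8.06, 8.16, 8.02, 8.06 and 7.84. Only rat 5 of the 1:1 diet fell into the range of the 3:1 rats. The difference was 0.27 (95% interval 0.09 to 0.45), and Agt rose from casein on the 1:1 diet by 0.54 (limma adjusted p = 0.00154).

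Other members of the estrogen list lay both ways. Lifr, a cytokine receptor, differed by 0.53 (95% interval 0.18 to 0.88). Hsd17b2, which oxidizes estradiol to estrone, read 5.11, 5.49, 5.01, 5.56 and 4.98 on the 3:1 diet and 6.06, 6.16, 4.56, 7.58 and 7.32 on the 1:1 diet. Rat 3 of the 1:1 diet was the lowest of all 10 and the other 4 were the highest, with a difference of 1.11 (95% interval 0.05 to 2.16). Prlr, the prolactin receptor, a female-predominant gene, differed by -0.53 (95% interval -1.05 to -0.01).

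The 3 measured metallothioneins, small proteins that bind zinc and copper, all had differences above 0. Mt1 read 2.91, 3.73, 3.0, 4.37 and 3.27 on the 3:1 diet and 4.36, 4.94, 3.53, 4.14 and 4.20 on the 1:1 diet. Rats 2 and 4 of the 3:1 diet reached into the 1:1 range, and the difference was 0.77 (95% interval 0.22 to 1.33). Mt2A read 2.68, 3.58, 2.91, 4.14 and 3.15 against 4.44, 5.67, 3.66, 4.75 and 5.27. Rat 4 was the highest 3:1 rat and rat 3 the lowest 1:1 rat for both genes, and the difference of Mt2A was 1.47 (95% interval 0.37 to 2.56), a level 2.76-fold higher. Mt3, added after its values were seen, differed by 0.24 (95% interval 0.02 to 0.47). The whole list with metal transporters had a median of 0.03 and 4 of 11 below 0. Against casein Mt1 rose on the 1:1 diet by 1.26 (limma adjusted p = 0.0142, a call lost without rat 2 of that diet) and differed by 0.48 on the 3:1 diet (adjusted p = 0.692).

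The promoters of Mt1 and Mt2A are shown because both genes lay higher and neighbour each other on 1 chromosome. Capitals mark the metal response element searched as TGCACNC or TGCGCNC on either strand, the letters that the zinc sensor MTF1 binds.
Mt1, chr19:10832926-10833225, minus strand: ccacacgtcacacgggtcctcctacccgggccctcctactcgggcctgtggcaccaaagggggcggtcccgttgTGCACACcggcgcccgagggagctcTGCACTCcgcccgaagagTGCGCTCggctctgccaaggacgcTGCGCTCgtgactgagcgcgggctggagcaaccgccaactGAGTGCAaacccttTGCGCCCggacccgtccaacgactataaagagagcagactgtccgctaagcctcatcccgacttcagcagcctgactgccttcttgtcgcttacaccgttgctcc
Mt2A, chr19:10838659-10838958, minus strand: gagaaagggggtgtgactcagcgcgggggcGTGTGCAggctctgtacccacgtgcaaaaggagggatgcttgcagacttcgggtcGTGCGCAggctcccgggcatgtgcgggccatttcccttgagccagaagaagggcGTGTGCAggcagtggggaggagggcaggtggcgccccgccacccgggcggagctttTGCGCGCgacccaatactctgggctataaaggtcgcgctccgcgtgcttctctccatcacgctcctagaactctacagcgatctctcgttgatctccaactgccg
The Mt1 window held 6 matches and that of Mt2A 4, none overlapping another, and 24.2% of all promoter windows held at least 1.

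The acute phase response had a median of 0.00 with 11 of 22 members below 0. At an unadjusted p under 0.05, 5 members were higher and 1 lower, where 7.45% of all genes had such a p. Orm1, orosomucoid, a secreted acute phase protein, read 7.92, 7.93, 8.20, 7.39 and 7.82 on the 3:1 diet and 8.28, 9.01, 8.77, 8.55 and 8.40 on the 1:1 diet. The rats of the 2 diets did not overlap, and the difference was 0.74 (SE 0.158, 95% interval 0.42 to 1.07, limma adjusted p = 0.368). Cd14, a receptor for bacterial lipopolysaccharide, read 3.53, 2.73, 3.91, 5.41 and 3.68 against 5.91, 5.34, 3.99, 5.00 and 4.10. All 3:1 rats but rat 4 lay below the 1:1 range, and the difference was 1.02 (95% interval 0.11 to 1.92).

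In the circadian clock list the median was 0.02 with 8 of 18 below 0. At an unadjusted p under 0.05, 3 members were higher, where 3.85% of all genes were higher. Nr1d2, a clock repressor of the REV-ERB family, read 0.94, 2.13, 1.16, 3.15 and 1.53 on the 3:1 diet and 2.98, 3.11, 2.17, 4.17 and 4.50 on the 1:1 diet. The highest 3:1 rat, rat 4, exceeded 3 of the 1:1 rats, and the difference was 1.60 (95% interval 0.40 to 2.81). Its relative Nr1d1 differed by 0.72 (95% interval 0.14 to 1.30). The labels used here do not give the hour at which the livers were taken.

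Criteria were separation of all 5 rats of each diet, an unadjusted p under 0.05 and a mean level above the median of the arrays. Of 13462 genes 83 met all of them, 40 higher and 43 lower on the 1:1 diet. Separation alone held for 156 genes (1.16%). The number expected without any difference between the diets was not set beside these counts. The criteria use the values themselves, so the 83 genes are described and not tested further. The 10 lower genes of largest difference included Irf2bp2, a transcriptional corepressor, with 4.86, 4.56, 4.92, 5.28 and 4.32 on the 3:1 diet and 3.85, 3.31, 4.13, 3.61 and 4.06 on the 1:1 diet. Mgmt, which removes alkyl groups from DNA, read 3.79, 4.25, 4.18, 3.68 and 4.08 against 3.52, 2.90, 3.40, 2.88 and 3.53. In both genes the lowest 3:1 rat stood just above the highest 1:1 rat. Their differences were -0.99 (95% interval -1.51 to -0.48) and -0.75 (95% interval -1.08 to -0.41).

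Transcription factors Sall1 and Tgif1 differed by -0.83 and -0.77, each with rat 5 as the 1:1 rat closest to the 3:1 rats. The others of the 10 were Sesn2, given above, the actin-binding protein Tpm1 (-0.48), the phosphatase regulator Ppp1r11 (-0.47), the sterol isomerase relative Ebpl (-0.46), the RNA-binding protein Rbm42 (-0.45) and Ppp2r1a, scaffold subunit of protein phosphatase 2A (-0.44). Tpm1 is uncertain: over its 7 probe sets the median difference was 0.04. Ppp2r1a and Sesn2 are uncertain too, since a second, dimmer probe set of Ppp2r1a gave -0.10 and that of Sesn2 is given above. Of the 10, Ebpl fell from casein on the 1:1 diet, by 0.63 (limma adjusted p = 0.0023), and differed by -0.17 on the 3:1 diet (adjusted p = 0.732).

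The 10 higher genes were led by Lrtm2, a membrane protein with leucine-rich repeats, with 2.47, 2.81, 3.02, 2.43 and 1.74 on the 3:1 diet and 3.64, 3.83, 4.35, 3.15 and 4.26 on the 1:1 diet. Bcar3, an adaptor protein of integrin signalling, differed by 0.98 and Orm1, given above, by 0.74. Cnn3, an actin-binding calponin, read 4.61, 4.43, 4.65, 4.71 and 4.40 against 4.91, 5.18, 5.15, 5.31 and 4.95. Every 1:1 rat lay above every 3:1 rat, the difference was 0.54 (95% interval 0.30 to 0.77), and Cnn3 rose from casein on the 1:1 diet by 0.73 (limma adjusted p = 0.00116). The rest were Tcp11l2 (0.62), the ubiquitin-independent degradation factor Midn (0.59), the endocytosis protein Fchsd2 (0.54), Rhobtb3 (0.52, with a second, dimmer probe set at 0.10) and the zinc finger proteins Zfp467 (0.49) and Zfp217 (0.47). Fchsd2 rose from casein on the 1:1 diet by 0.56 (adjusted p = 0.0165), a call lost without rat 4 of that diet.

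**Figure D4:**
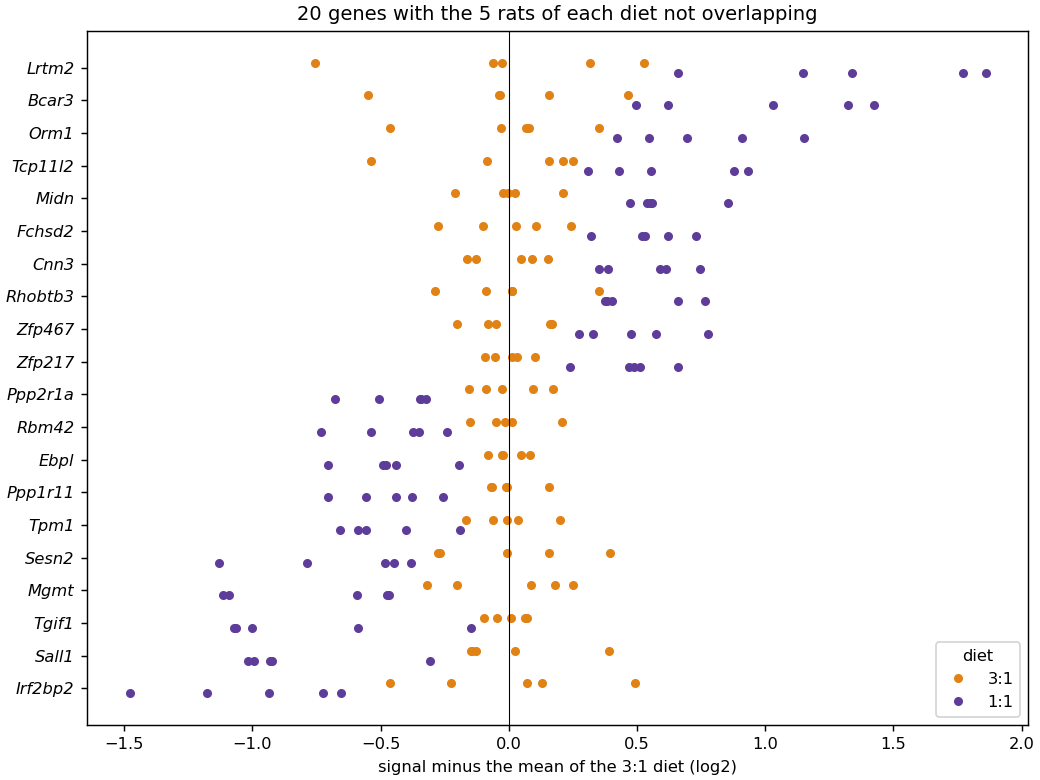
Log2 signal minus the mean of the 3:1 diet (horizontal axis) in each of 5 rats per diet, for the 20 genes chosen because the rats of the 2 diets did not overlap. Points to the left are lower than the 3:1 mean; the difference runs from -0.99 in Irf2bp2 to 1.35 in Lrtm2.

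Among markers of other cell types, those of macrophages were lower on the 1:1 diet in 10 of 11 measured members, with a median of -0.23 that stayed between -0.290 and -0.189 over the settings. Clec4f, a lectin of Kupffer cells, the resident macrophages of liver, read 6.18, 6.19, 6.03, 6.05 and 5.89 on the 3:1 diet and 5.82, 5.78, 5.39, 5.91 and 5.44 on the 1:1 diet. Rat 4 of the 1:1 diet was just above the lowest 3:1 rat, and the difference was -0.40 (95% interval -0.72 to -0.08). Csf1r, the receptor for macrophage colony-stimulating factor, read 3.57, 3.58, 3.52, 3.47 and 3.57 against 3.46, 3.02, 3.01, 3.42 and 2.89, with no overlap. Csf1r differed by -0.38 (95% interval -0.75 to -0.01) and Cd5l, a protein secreted by macrophages, by -0.45 (95% interval -0.86 to -0.03). These last 2 genes were added after their values were seen, and the rule of the smallest p in each list uses the values too. Cd14, given above, was the member above 0. The mean level of the 11 markers ranged from 4.29 to 4.61 in the 3:1 rats, from 4.02 to 4.45 in the 1:1 rats and from 4.09 to 4.52 in the casein rats.

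Among markers of other cells, those of neutrophils had the highest median of all lists, 0.15, with 2 of 7 below 0 and a range from 0.104 to 0.207 over the settings. The other medians were 0.03 for endothelial cells (4 of 9 below 0), 0.03 for stellate cells (3 of 11), 0.01 for bile duct cells (3 of 7) and 0.07 for lymphocytes (3 of 12). Those of red blood cells (-0.04, 4 of 5 below 0), pancreas (0.02, 5 of 11) and adipose tissue (-0.02, 3 of 5) rest on few or dim genes. So do those of neutrophils, with mean levels of 2.26 to 2.56 on the 3:1 and 2.31 to 2.67 on the 1:1 diet. For bile duct cells the mean levels were 2.41 to 2.64 and 2.48 to 2.66. The part of such cells in the differences above was not tested.

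Lists of the cell's basic machinery showed small medians with uneven signs. Cytosolic ribosomal proteins lay lower on the 1:1 diet in 32 of 40 members, with a median of -0.08, and the proteasome in 26 of 33, with a median of -0.06 that ran from -0.105 to 0.0104 over the settings. Cell cycle genes were lower in 24 of 34, with a median of -0.11 that ran from -0.170 to -0.0635 over the settings. The respiratory chain and ATP synthase stood at 0.02 with 29 of 64 below 0. At an unadjusted p under 0.05, 7 of its members were lower, where 3.6% of all genes were lower. Thyroid hormone genes had a median of 0.14 (5 of 16 below 0) and none with an unadjusted p under 0.05, where 7.45% of all genes had one. The NRF2 targets had a median of -0.06 (16 of 27 below 0), among them Gclm, a subunit of the enzyme that begins glutathione synthesis, which differed by 0.41 (95% interval 0.03 to 0.79). Male-predominant liver genes stood at 0.08 (5 of 15 below 0) and female-predominant ones at -0.13 (9 of 14 below 0).

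The other lists, all with medians within 0.09 of 0, were bile acids and sterol export (0.00, 9 of 18 below 0), lipoproteins (-0.01, 11 of 18), AhR targets (-0.09, 6 of 9), the growth hormone and IGF axis (-0.05, 11 of 18), the interferon response (-0.09, 19 of 29), the endoplasmic reticulum stress response (-0.05, 15 of 24) and the hepatocyte markers (0.00, 5 of 9). Of all 38 lists, 16 kept the sign of their median under every setting.

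**Figure D5:**
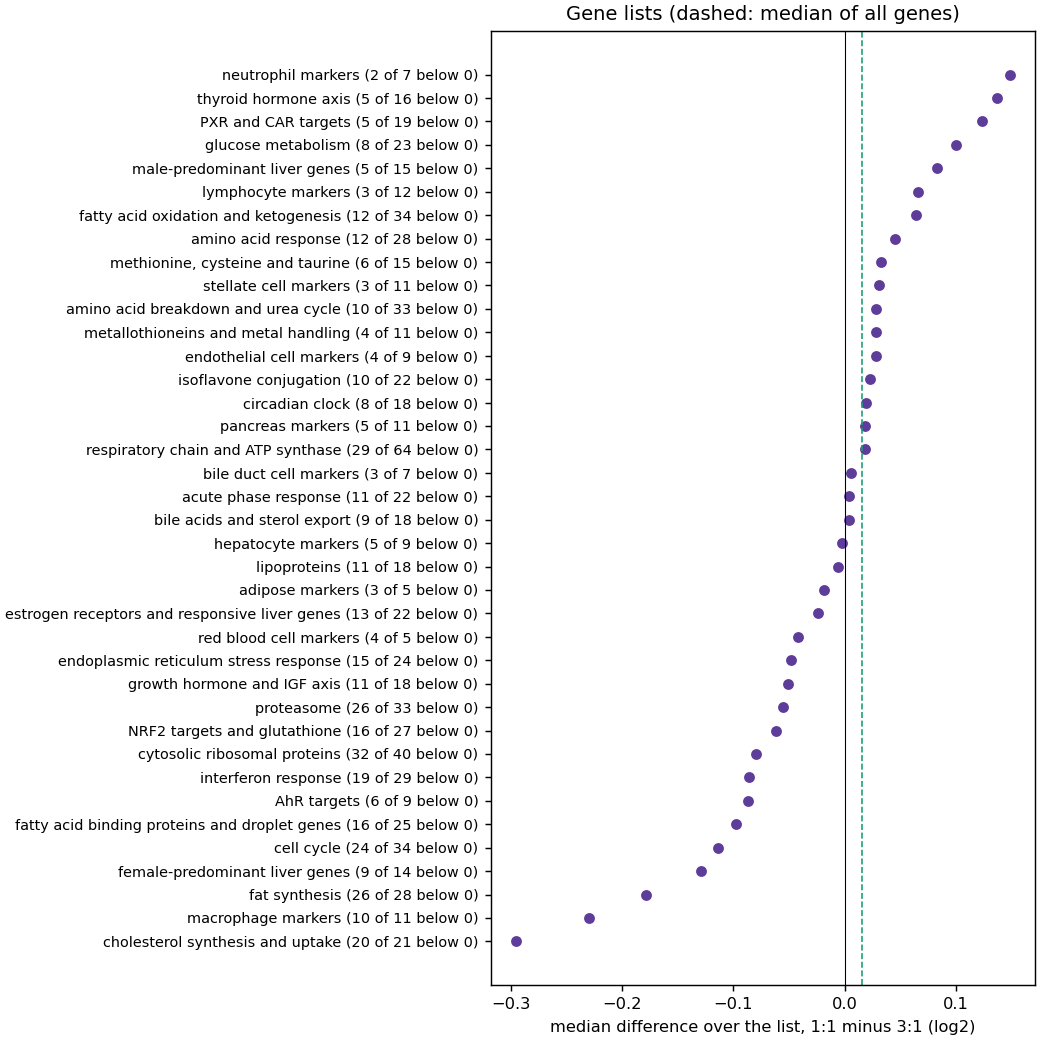
Median difference between the 1:1 and the 3:1 diet (log2, horizontal axis) over the measured genes of each of 38 lists, with the number of members below 0 beside each name and the median of all genes as a dashed line. Cholesterol synthesis (-0.30), macrophage markers (-0.23) and fat synthesis (-0.18) lie lowest, neutrophil markers (0.15) and thyroid hormone genes (0.14) highest.

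Set against casein, the 2 shares gave counts of different size, from comparisons that share the casein rats. On the 3:1 diet 11 of 27702 probe sets were called (0.0397%), 6 higher (0.0217%) and 5 lower (0.018%). On the 1:1 diet 613 were called (2.21%), 317 higher (1.14%) and 296 lower (1.07%). The split depends on the scaling: the share of higher calls was 54.5% for the 3:1 and 51.7% for the 1:1 diet as deposited, 28.6% and 38.6% after quantile normalization, and 16.7% and 27.6% after centring and scaling. Among the 317 probe sets higher on the 1:1 diet than on casein the median difference from casein was 0.60 on the 1:1 and 0.35 on the 3:1 diet. Among the 296 lower ones it was -0.73 and -0.39. These sets were chosen on the 1:1 rats, so their median difference between the shares, 0.25 and -0.35, is a description only.

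The genes called on the 3:1 diet against casein were named after their values were seen. Car3, Fabp2 and Cox7b were not named for these calls, but they too were chosen with earlier results of these data known. Cox7b2, listed as a subunit of cytochrome c oxidase, fell by 0.80 on the 3:1 diet (limma adjusted p = 0.00143) and by 1.04 on the 1:1 diet (adjusted p = 1.5e-05), and it was called against casein in all settings run. It differed by -0.24 between the shares (95% interval -0.44 to -0.04). Cox7b, the related subunit, fell by 0.84 (adjusted p = 0.0367) and 1.27 (adjusted p = 1.2e-04) and differed by -0.43 (95% interval -0.73 to -0.13). Near-identical copies may share signal on such probe sets.

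Wfdc21, a secreted protease inhibitor family member, fell by 1.73 on the 3:1 and 1.89 on the 1:1 diet (limma adjusted p = 0.0106 and 3.5e-04) and differed by -0.16 between them (95% interval -0.68 to 0.36). Eprs1, a tRNA synthetase read here by a dim second probe set, fell by 1.13 and 1.39 and differed by -0.25 (95% interval -0.67 to 0.16). Ddah1, which breaks down methylarginines, rose by 0.70 and 0.99 and differed by 0.29 (95% interval 0.05 to 0.53). Carbonic anhydrase Car3 rose by 0.90 and 1.03 and differed by 0.13 (95% interval -0.21 to 0.47). The related Car8 rose by 0.76 and 0.65, and the transporter Slc6a13 by 0.66 and 0.60. Between the shares Car8 differed by -0.11 (95% interval -0.38 to 0.17) and Slc6a13 by -0.06 (95% interval -0.31 to 0.19). The calls of Car3, Car8 and Slc6a13 on the 3:1 diet were each lost in 15 of 19 alternative settings, among them the omission of any of 3:1 rats 1 to 4 or of casein rats 2 to 5, and for Car8 and Slc6a13 also of 3:1 rat 5. That of Ddah1 was lost without 3:1 rat 1, 3 or 4 or casein rat 2, 4 or 5, that of Cox7b without 3:1 rat 3, 4 or 5 or casein rats 2 to 5, and that of Wfdc21 without casein rat 5. For the calls against casein given here, except Eprs1, which was not counted, all 5 rats of the diet lay on the called side of the casein mean. These genes were chosen by their calls on the same rats, so that count adds no support.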

How the data were processed

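Total RNA of rat liver, isolated by the phenol and guanidinium method, was labelled with biotin by a 3′ IVT kit and read on an Affymetrix array, per the labels' protocols. The deposited table holds log10 values of signal that the authors had normalized with the SuperNORM data service, per the labels. The log10 base was inferred: over the spike-in controls the slope was 0.998 (SD 0.0236, 20 arrays). Values were multiplied by 3.3219 to give log2 and not normalized further. The summary of probes into probe sets was not stated in the labels. Of 31099 probe sets, 57 controls and 3342 without values (2 in both) were left out. By the platform annotation 19147 tested probe sets had 1 symbol, 404 several and 8151 none, and none was named from several.

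Each contrast was fitted in limma 3.58.1 (R 4.3.3), with 1 mean per diet over all 20 arrays, eBayes with trend, two-sided, and Benjamini-Hochberg adjustment over 27702 probe sets. Intervals are at 95% from this fit. The number of arrays limits the precision.

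Gene lists held 869 symbols, 720 of them measured. Named genes were those called (none), the 10 largest per direction with non-overlapping rats, an unadjusted p under 0.05 and a mean level above the median, the 2 members of each list with the smallest p, a short list of genes, members of the lipid synthesis, conjugation and estrogen lists, and control probe sets. Members and lists were chosen with earlier results of these data known. Alternatives were 2 other normalizations, a fit of the compared arrays only, no trend, no dim probe sets, a raised floor, a replicate block, omission of arrays, and the median over a gene's probe sets. The replicate numbers did not pair the rats, apart from a correlation between the rats of number 1.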

Additional observations from a re-analysis of the deposited data

Results flagged for a closer look

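Single rats stood far from the other 4 of their diet in 17 of 186 groups of values examined, where chance gives about 5%. Rat 4 of the 3:1 diet was the low rat for Pmvk at 3.98, with the next rat at 4.76. The same rat was lowest for Pnpla3 at 2.86 (next 6.44), for Srebf1 at 5.22 (next 6.73), for Acly at 5.86 (next 7.65) and for Fasn at 4.34 (next 6.63). It was the high rat for Car8 at 5.37 (next 4.73). These lipid genes belong to overlapping lists, so the values are not separate observations of that rat.

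Rat 3 of the 1:1 diet stood high for Cyp51 at 6.15 (next 5.88), for Pgd at 5.35 (next 4.85) and for Nsdhl at 7.14 (next 6.89). Rat 3 of the 3:1 diet stood high for Me1 at 5.88 (next 4.65). Rat 5 of the 3:1 diet read 4.82 for Ephx2, with the next at 2.43. Rat 5 of the 1:1 diet read 2.33 for Fabp2 (next 1.84) and 4.32 for Sall1 (next 3.71). Rat 2 of the 1:1 diet read 3.62 for Midn (next 3.32), and rat 1 of the 3:1 diet 3.90 for Ppp1r11 (next 3.74). The lowest value on the array of rat 1 of the 3:1 diet was 0.471 (next -0.879), and its 3′ minus 5′ signal of beta-actin was 2.13 (next 1.56). No cause of these departures was tested.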

How the results depend on the processing

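The count of 0 probe sets called between the shares ranged from 0 to 1 when single rats were left out and was 0 under all other settings (limma). Non-overlapping probe sets numbered 173 without dim probe sets, 544 without the 2 arrays with a higher floor, 962 without number 1 of all diets and 453 to 769 without single rats; fewer rats per diet overlap less often by construction. With the replicate block, 0 were called between the shares. Numbers 2 to 5 did not pair the rats of the 2 shares. Deviations of same-numbered rats from their diet means correlated at -0.0804, -0.0138, 0.0142 and -0.0461. For number 1 the correlation was 0.328, against at most 0.00764 between 1:1 rat 1 and the 3:1 rats of other numbers. The cause of that correlation was not tested. The 11 calls of 3:1 against casein became 7 by quantile normalization, 6 centred and scaled, 5 with only the compared arrays, 3 without the trend, 19 without dim probe sets, 23 with the replicate block, 4 without the higher-floor arrays, 6 without number 1 and 1 to 26 without single rats, with 26 without casein rat 1 and 1 without casein rat 5. The 613 calls of 1:1 against casein became 312 without the higher-floor arrays, 380 without number 1 and 296 to 716 without single rats, with 296 without rat 2 of the 1:1 diet. Without casein rat 5, a higher-floor array, they were 342. Esr2 turned to -0.0199 by quantile normalization, -0.0356 centred and scaled and -0.10 without number 1, and Scd to 0.0544 and Gpam to 0.10 without number 1. Over single omissions Esr2 ran from -0.12 to 0.13, Scd from -0.16 to 0.10, Gpam from -0.12 to 0.14, Me1 from -0.25 to 0.14, Slc6a13 from -0.133 to 0.0601 and Car8 from -0.176 to 0.0259. Tpm1 turned to 0.0356 as the median over its probe sets. Of 89 named genes these 7 changed sign between the shares in some setting, and in 26 the omission of 1 rat moved the difference by over 1.5 times. The cause of these moves was not tested.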
